A study of Mus musculus with 11 samples.

Results

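Open chromatin was examined at 33 genes of synaptic release and synaptic adhesion in embryonic mouse dopaminergic (DA) and serotonergic (5-HT) neurons. The members were listed by name for what their products do at the synapse, and a deposited open region was assigned to a member when it overlapped the gene body, extended by 10 kb on both sides, by at least 1 bp. All 33 genes were found among the 22367 protein-coding genes of the mouse annotation (build mm9), and 560 of the 131942 deposited regions lay in their windows, none of them in the windows of more than 1 member. Of these 560 regions, 52 touched a promoter of the member itself, which runs from 1 kb before to 100 bp after any annotated transcription start. Another 21 lay in a promoter of a different gene, and the other 487, called distal here, lay in neither. Below, a length in kb given for a member is that of its body. The regions given with it are those of the whole window.

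The study used ATAC-seq, in which the Tn5 transposase inserts adapters where DNA is accessible, on sorted neurons of embryonic day 14.5. There were 3 libraries of DA neurons and 2 of 5-HT neurons. Each library came from a separate sort of tissue from several embryos, and its peaks were called for that library alone. The comparison between the groups asks which open regions the cell types share and which they do not.

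DA neurons were sorted for GFP from the ventral mesencephalon of TH-GFP embryos, a line kept on a C57BL/6J background in which the rat Th promoter drives GFP. 5-HT neurons were sorted for YFP from rhombomeres r1 to r3 of Mash1-CRE x ROSA YFP embryos. In both cases transgenic males had been mated with Swiss wild-type females, so the embryos of both groups are crosses with that stock, and no agent was given. As background on the limits of these models, Mash1 acts in progenitors of many neuron types and is not restricted to the serotonergic lineage, and a ROSA reporter stays on in all descendants of a cell in which Cre has acted. In the study's immunofluorescence on cells sorted in this way, most YFP cells carried Tph2 and most GFP cells carried Th. The study proposes a slight contamination of its DA sort by GABAergic neurons. Its RNA-seq of the 5-HT sort likewise found transcripts of DA and GABAergic genes. Both 5-HT libraries were made from fewer sorted cells than any DA library. Cell type, brain region, reporter line and the number of sorted cells differ between the groups all at once and cannot be told apart.

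At a synapse, vesicles are filled, held in reserve by synapsins, brought to the active zone by Rab3 and RIM proteins, primed by Munc13 and CAPS proteins, and fused by SNARE proteins when a synaptotagmin binds calcium. Neurexins on the axon bind neuroligins on the target cell and align both sides of the contact. DA and 5-HT neurons use most of this machinery in axons whose release sites often lack a facing postsynaptic density, and at this age their axons are still growing.

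The value for each region in each library is the score deposited with its peak, on a scale the files do not name, and 0 means that the library had no peak there. Scores above 0 started at 3.45, 3.04 and 3.03 in DA replicates 1, 2 and 3 and at 3.37 and 2.83 in 5-HT replicates 1 and 2, and their medians were 5.12, 4.44, 4.01, 4.48 and 3.69 in the same order. That order is kept below wherever 5 values stand in a series. Scores and sums of scores are listed for every library but share no known scale, so the libraries are set against each other by presence, percentile or rank.

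The libraries differed in how many peaks they held. DA replicates 1, 2 and 3 had 52861, 93055 and 94351 peaks, and 5-HT replicates 1 and 2 had 38772 and 22879. Every DA library held more peaks than either 5-HT library, so with all peaks the cell type and the size of the peak set cannot be told apart. Counts are therefore given with all peaks and also with the same number of peaks from every library, the 22879 with the highest scores, called its top peaks here. The number of reads per library is unknown.

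The labels were checked against marker promoters. Of 10 DA marker genes, 10, 10 and 10 had a promoter peak in the DA libraries and 7 and 6 in the 5-HT libraries, with summed scores of 74.0, 77.9, 67.0, 34.8 and 19.8. Th, the rate-limiting enzyme of dopamine synthesis, scored 9.91, 10.6 and 8.45 in the DA libraries and 0 in both 5-HT libraries, and the DA fate gene Lmx1a was also without a peak in both. By top peaks, counted after the data had been seen, the same list gave 8, 7, 7, 6 and 6 genes. Th had a top peak in every DA library and in neither 5-HT library, which held for no other gene of the list. As background, Ddc, Slc18a2, Lmx1b and En1 on this list are also active in 5-HT neurons.

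The 5-HT markers gave a less clear picture. Of 5 genes, 3, 4 and 3 had a promoter peak in the DA libraries and 4 and 2 in the 5-HT libraries, with summed scores of 21.7, 21.8, 19.5, 20.3 and 11.1. Tph2, the enzyme of neuronal serotonin synthesis, had a promoter peak in all 5 libraries, with scores of 9.91, 7.59, 11.1, 7.09 and 3.59. Slc6a4, the serotonin transporter, had promoter peaks in all DA libraries and none in the 5-HT libraries. Fev, a serotonergic fate gene, had a promoter peak in 5-HT replicate 1 alone, at 3.88, and Gata2 had one in DA replicate 2, at 3.11, and in 5-HT replicate 1, at 4.197. Gata3 had one in all 5 libraries, at 6.98, 4.52, 4.65, 5.17 and 7.51, and this was the highest score of the list in 5-HT replicate 2. By top peaks the list gave 2, 1, 1, 3 and 2 genes. These defining markers therefore did not separate the groups, and 5-HT replicate 2 lacked promoter peaks at Slc6a4, Fev and Gata2.

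Other cell types were checked in the same way. Promoter peaks were found at 3, 3, 3, 3 and 2 of 3 GABA genes (summed scores 14.9, 13.9, 12.9, 13.3 and 6.60), at 1, 1, 1, 1 and 0 of 2 glutamate genes (9.97, 12.9, 12.8, 3.65 and 0) and at all 4 of 4 progenitor genes in each library (18.3, 19.4, 17.3, 17.9 and 14.5). Slc17a6 was the glutamate gene with a peak and Slc17a7 had none. The astrocyte list gave 1, 3, 2, 1 and 1 of 3 genes (6.91, 15.9, 10.8, 6.92 and 3.20), with Gfap the highest in the first 4 libraries, and the oligodendrocyte list gave Olig1 alone, 1 of 3 in every library (7.79, 6.43, 7.28, 4.47 and 3.58), with Mog and Sox10 at 0. Endothelial and pericyte genes gave 2, 4, 3, 2 and 0 of 5 (8.79, 16.2, 12.0, 9.29 and 0), with Cldn5 the highest in the DA libraries, Flt1 in 5-HT replicate 1 and Pecam1 at 0, and the 3 microglial genes had no promoter peak in any library. By top peaks the GABA list gave 0, 0, 0, 2 and 2 genes, the glutamate list 1, 1, 1, 0 and 0, the progenitor list 0, 0, 0, 2 and 4, the astrocyte list 1 in every library, the oligodendrocyte list 1, 0, 1, 1 and 1 and the endothelial and pericyte list 0, 0, 0, 2 and 0. The part of other cells in the results at the 33 genes was not tested.

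Across the 560 regions of the 33 genes, the DA libraries had peaks in 223, 386 and 418 and the 5-HT libraries in 153 and 92. These are 39.8% (95% Wilson interval 35.8% to 43.9%), 68.9% (65.0% to 72.6%) and 74.6% (70.9% to 78.1%) in DA neurons and 27.3% (23.8% to 31.2%) and 16.4% (13.6% to 19.7%) in 5-HT neurons, intervals that cover counting error only. All DA values were above all 5-HT values, and over all deposited regions the same libraries had peaks in 40.1%, 70.5%, 71.5%, 29.4% and 17.3%. The group means at the 33 genes were 61.1% ± 18.7 (SD, n = 3) and 21.9% ± 7.70 (n = 2), a difference of 39.3 points, next to 37.3 points over all deposited regions. In sorted pools, a region open in few cells and a region open weakly in many cannot be told apart.

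Over the top peaks that difference was smaller than the spread between replicates. The regions of the 33 genes with a top peak numbered 95, 87 and 91 in DA neurons and 84 and 92 in 5-HT neurons. The groups overlapped, since 5-HT replicate 2 was above DA replicates 2 and 3. The means were 16.2% ± 0.714 (n = 3) and 15.7% ± 1.01 (n = 2), a difference of 0.536 points, and the share over all deposited regions is 17.3% in every library by construction.

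Promoter and distal regions of the members behaved differently. Of the 52 promoter regions, 30, 29 and 28 had a top peak in the DA libraries, and 31 and 34 did in the 5-HT libraries. The 5-HT libraries were both above all DA libraries, with means of 55.8% ± 1.92 (n = 3) and 62.5% ± 4.08 (n = 2). Among all 16220 regions in protein-coding promoters the means were 58.1% ± 1.33 and 64.9% ± 0.484, so the promoter regions of the 33 genes differed by -6.73 points and those of all genes by -6.83.

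In the distal regions the order was the opposite. Of the 487 distal regions, 58, 52 and 57 had a top peak in the DA libraries, and 45 and 47 did in the 5-HT libraries. All DA values lay above both 5-HT values, with means of 11.4% ± 0.660 (n = 3) and 9.45% ± 0.290 (n = 2), a difference of 1.98 points. Regions outside every annotated promoter gave 11.5% ± 0.180 and 10.4% ± 0.0688 over the genome, a difference of 1.01 points. Since every library kept the same number of top peaks, more of them in promoters leave fewer elsewhere. Over the genome the opposite orders are therefore tied by construction and are not separate results. With all peaks, the promoter regions had a peak in 80.8%, 90.4%, 94.2%, 76.9% and 65.4% of cases and the distal regions in 34.9%, 66.1%, 72.7%, 21.1% and 9.65%. The difference over distal regions alone was computed after the other values had been seen.

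**Figure D1:**
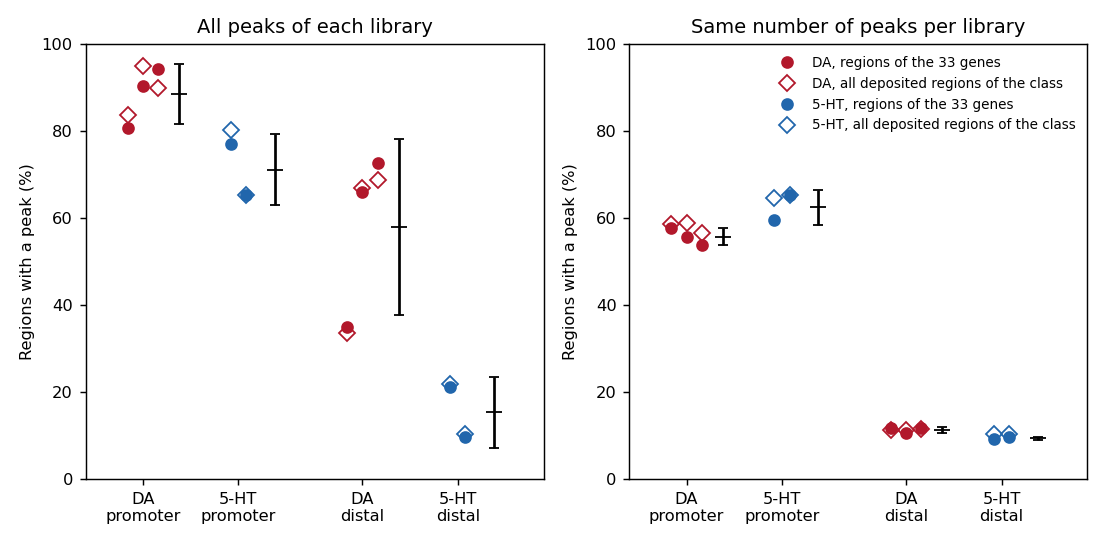
Share of regions with a peak (%, vertical axis) in each DA library (red) and 5-HT library (blue), for the 52 promoter and 487 distal regions of the 33 genes (filled points) and all deposited regions of the same class (open diamonds), with all peaks and with the same number of peaks per library, and with the mean and SD of the filled points in black. With the same number the distal means are 11.4% in DA and 9.45% in 5-HT libraries and the promoter means 55.8% and 62.5%.

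The regions of the 33 genes were classed by the libraries in which they had a peak. With all peaks, 62 of the 560 regions had a peak in all 5 libraries (11.1%, 8.73% to 13.9%; 12.8% of all deposited regions). A further 86 had a peak in every DA library and in no 5-HT library (15.4%, 12.6% to 18.6%), against 13.4% of all deposited regions, and are called DA-only regions here. Without DA replicate 1 the DA-only count was 166, and without 5-HT replicate 2 the count shared by the remaining libraries was 102. The reverse class, 5-HT-only regions, open in both 5-HT libraries and in no DA library, held 3 regions (0.536%, 0.182% to 1.56%), against 0.389% of all deposited regions, and 25 without 5-HT replicate 2, 14 without 5-HT replicate 1 and 5 without DA replicate 2. Another 46 had a peak in every DA library and in 1 of the 5-HT libraries (8.21%, and 8.49% of all deposited regions). Peaks in 1 DA library alone made up 206 regions (36.8%, and 39.8% of all deposited regions) and peaks in 1 5-HT library alone made up 33 (5.89%, and 4.71%).

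When only top peaks were counted these classes were nearer to each other. The class of all 5 libraries then held 42 member regions (7.5%, against 8.34% of all deposited regions). DA-only regions then numbered 15 (2.68%, 1.63% to 4.37%), beside a genome-wide share of 2.14%, and 5-HT-only regions 9 (1.61%, 0.848% to 3.03%), beside 1.79%. By top peaks a region of either class can still hold a lower peak in the other group. The shares of the 33 genes were thus near those of all deposited regions in each class. All 15 DA-only regions by top peaks were distal, 3.08% of the 487, against 2.33% of regions outside every promoter, and 7 of the 9 5-HT-only regions were distal, 1.44% against 1.51%.

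**Figure D2:**
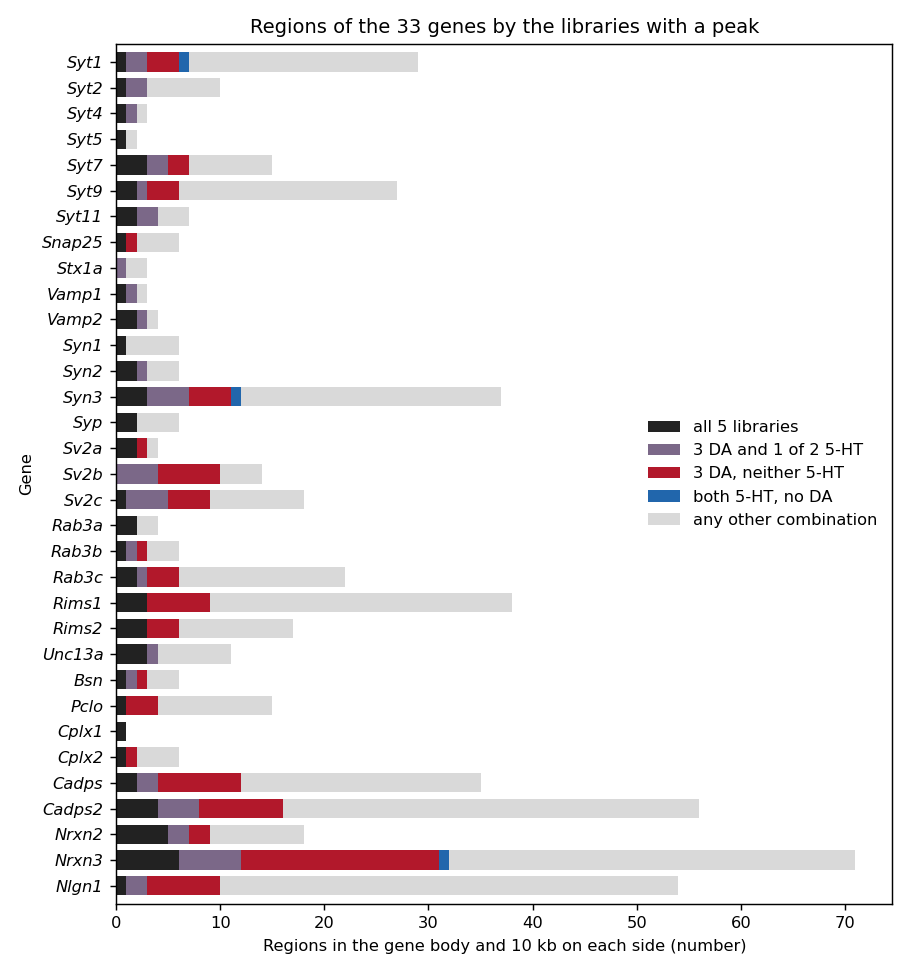
Number of regions in the body and 10 kb on each side (horizontal axis) of each of the 33 genes (vertical axis), with bars divided by the libraries that had a peak, all peaks counted. Nrxn3 has the longest bar, with 71 regions of which 19 are DA-only, and 5-HT-only regions appear at Syt1, Syn3 and Nrxn3, 1 each.

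Of the 62 regions with a peak in all 5 libraries, 34 were promoter regions of the member, 8 were promoters of other genes and 20 were distal, and over all deposited regions 10174 of the 16856 shared ones lay in protein-coding promoters. Of the 86 DA-only regions, 1 was a promoter region, that of Sv2a, and 85 were distal, 79 of them in introns, while 16631 of all 17616 DA-only regions lay outside every promoter. The 3 5-HT-only regions were all distal and intronic. DA-only distal regions lay at a median of 76.7 kb from the nearest start of the gene, and the 20 shared distal regions at 53.6 kb. Distal regions of the other classes named above lay at medians of 42.6 to 60.6 kb. Gene length was not allowed for, and these distances were not computed over all deposited regions. Regions open in all 5 libraries were also wider, with a median of 1158.5 bp, than the DA-only regions, with 495.5 bp, and peaks of 1 DA library alone spanned 204 bp. Over all deposited regions the same classes had medians of 1091, 523 and 209 bp.

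A promoter region with a peak in all 5 libraries was present at 27 of the 33 genes, against 48.3% of all protein-coding genes. By library, 32, 32, 32, 31 and 27 of the 33 genes had a promoter peak. The 6 exceptions were Stx1a, Vamp2, Syn2, Sv2a, Sv2b and Nlgn1. At Stx1a, Vamp2, Syn2 and Sv2b the peak was missing from 5-HT replicate 2 alone. At Sv2a it was missing from both 5-HT libraries, and Nlgn1 had no promoter region in any library. Leaving out 5-HT replicate 2 gave 31 genes, and leaving out any other library gave 27.

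Counted per gene with all peaks, 19 of the 33 genes had more regions with a peak in every DA library than in every 5-HT library, against 29.8% of 19058 protein-coding genes with a region. Genes with bodies of 100 kb or more made up 12 of the 19, from 15 members of that length, and 61.2% of all genes of that length met the same condition. By top peaks, 2 members did, Rims2 and Pclo, against 5.45% of genes, and 2 had more in every 5-HT than in every DA library, Syt1 and Syt11, against 5.54%. The count in favour of DA libraries was 10 without 5-HT replicate 2, 5 without 5-HT replicate 1 and 4 without DA replicate 2. The other 29 members had overlapping or equal counts, and 7 of them had the same count in all 5 libraries. With 3 libraries against 2, the exact two-sided permutation test cannot give a p under 0.1, which is the value for each of these 4 genes. Such a p only places the grouping among all splits of these 5 libraries. It does not measure the spread between replicates and says nothing beyond these libraries.

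Synaptotagmins are vesicle proteins with paired C2 domains and include the calcium sensors of release. The 7 synaptotagmins listed here held 93 regions, 11 in their promoters, with a median of 10.1 regions per 100 kb of window, and the regions with a peak numbered 33, 62, 71, 28 and 19 with all peaks and 18, 16, 17, 16 and 19 with top peaks. The last series shows no separation of the groups. Shared regions numbered 11, DA-only regions 8 (8.60%, against 13.4% of all deposited regions) and 5-HT-only regions 1.

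Syt1 encodes the sensor of fast, synchronous release. Its 29 regions lie along chr10:107934706-108448038 on the minus strand, and 8, 19, 22, 9 and 4 of them had a peak with all peaks, which overlaps between the groups. Its counts of top peaks were 2, 2, 3, 5 and 4, higher in both 5-HT libraries than in any DA library (exact permutation p = 0.1, n = 3 and 2). Its promoter region, chr10:108447096-108449150, scored 8.52, 10.5, 11.9, 6.50 and 6.40, at percentiles of 84.4, 91.3, 96.2, 82.8 and 91.6 of the peaks of each library. An intronic region at chr10:107969513-107970283 had a peak in the 5-HT libraries alone, at 4.79 and 3.59, and was a top peak in both.

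Syt2, a fast sensor with a strong place in the hindbrain and spinal cord, had 10 regions in 43.9 kb, with a peak in 3, 9, 6, 2 and 2 of them. Its promoter peak was present in all 5 libraries, at percentiles of 53.7, 66.8, 65.0, 23.6 and 19.6, above the median peak in the DA libraries and below it in the 5-HT libraries. An intronic region 4532 bp from the start, chr1:136609940-136610879, scored 9.25, 11.5, 8.42, 3.67 and 0, and was a top peak in the DA libraries only. Syt2 thus had a stronger intronic than promoter peak in each DA library.

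Syt9, a further sensor of fast release in a subset of neurons, had 27 regions in 178 kb, or 13.6 per 100 kb, and 6, 10, 25, 5 and 3 of them had a peak. DA replicate 3 stood apart, and 17 of the 27 regions had a peak in 1 DA library alone. The counts of top peaks were 4, 3, 3, 3 and 3. Its intronic region at chr7:114669515-114670260 scored 10.6, 12.1 and 9.75 in the DA libraries and 0 in the 5-HT libraries, and its lowest percentile, 92.5, was the highest among all DA-only distal regions of the 33 genes.

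Syt7, a slow high-affinity sensor tied to asynchronous release, was among the 5 members with the most regions for their length, with 15 in 64.1 kb, or 17.8 per 100 kb. Peaks were found in 9, 13, 10, 4 and 5 of them with all peaks and in 5, 4, 6, 2 and 5 with top peaks. The groups were apart in the first series and overlapped in the second. Its promoter region scored 9.48, 11.9, 9.91, 5.00 and 3.69. The intronic region chr19:10469699-10470170, with scores of 5.69, 9.02, 6.38, 3.45 and 0, was a top peak in the DA libraries only.

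Syt4 and Syt11 belong to the synaptotagmins with an altered calcium-binding site, and Syt5 is a calcium-binding isoform. Syt4 had 3 regions and Syt5 had 2, and their top peaks numbered 2, 2, 2, 2 and 1 at Syt4 and 1 in every library at Syt5. Syt11 had 7 regions with top-peak counts of 2, 2, 1, 3 and 3, higher in both 5-HT libraries (exact permutation p = 0.1, n = 3 and 2). Its promoter peaks sat at more than 1 start. The internal one, chr3:88576377-88576729, scored 8.41, 19.2, 8.27, 6.37 and 6.37, and the one at the 5′ end, chr3:88636395-88636627, scored 14.1, 12.4, 4.68, 6.43 and 0.

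The SNARE proteins pull vesicle and plasma membrane together. The 4 members held 16 regions, 5 in their promoters, with 9, 12, 10, 9 and 5 peaks in the 5 libraries and 4, 4, 3, 5 and 5 top peaks. The first series overlapped between the groups, and in the second both 5-HT counts were above every DA count. Besides the 5 promoter regions, 3 of the 16 lay in promoters of other genes. Over all regions in protein-coding promoters, both 5-HT libraries were also above every DA library by top peaks (means 64.9% and 58.1%). Shared regions numbered 4, DA-only regions 1 (6.25%, against 13.4% of all deposited regions) and 5-HT-only regions 0.

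Stx1a, the plasma-membrane syntaxin of release, had 3 regions, of which only the promoter region reached its body of 27.6 kb. Its promoter region, chr5:135499095-135499777, scored 4.53, 5.29, 4.01, 3.37 and 0, at percentiles of 38.1, 62.7, 50.01 and 4.68 where it had a peak, and none of its regions was a top peak in any library. Vamp2, the vesicle SNARE of fast release, had a promoter region, chr11:68901551-68902543, with scores of 5.25, 6.43, 5.33, 4.25 and 0. Stx1a and Vamp2 both lacked the promoter peak in 5-HT replicate 2 and had it in the other 4 libraries.

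Vamp2 is also among the members with the most regions for the length of their windows, with 4, or 16.7 per 100 kb. Its body is 3.90 kb long. Peaks were found in 3, 4, 3, 3 and 2 of the 4 regions, and the groups overlapped. Only the promoter region of Vamp2 reached its body, and the other 3 regions lay downstream. Both of its regions with a peak in all 5 libraries lay in promoters of the neighbouring clock gene Per1, and neither touches a promoter of Vamp2.

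Vamp1, the isoform of spinal cord and hindbrain synapses, had the strongest SNARE promoter. It scored 13.1, 17.7, 17.1, 8.22 and 4.98, at percentiles of 96.7, 98.5, 99.01, 93.4 and 80.3. All 5 peaks were high within their libraries, and the DA percentiles were above both 5-HT percentiles. Snap25, the plasma-membrane partner of syntaxin, had 6 regions, of which 3, 4, 4, 2 and 1 had a peak, and its promoter region spanned 2721 bp with scores of 5.75, 7.73, 6.53, 5.53 and 3.49. Snap25 had 1 top peak in every library.

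The vesicle proteins are 3 synapsins, synaptophysin, 3 SV2 glycoproteins and 3 Rab3 GTPases. These 10 genes held 123 regions, 12 in their promoters, with 56, 98, 88, 40 and 22 peaks and 28, 25, 29, 27 and 22 top peaks. The groups were apart in the first series and overlapped in the second. Shared regions numbered 16, DA-only regions 19 (15.4%, against 13.4% of all deposited regions) and 5-HT-only regions 1.

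Synapsins hold vesicles in the reserve pool. Syn3, the isoform of early development, had 37 regions in 444 kb, with a peak in 11, 23, 25, 13 and 8, and with a top peak in 8, 7, 8, 7 and 8. Neither series separated the groups. Some of these regions are promoters of Timp3, a protease inhibitor gene that lies inside an intron of Syn3. The main promoter region of Syn3, chr10:85960301-85962138, scored 9.12, 11.7, 11.2, 6.35 and 8.77, and that last value ranked 484 among the peaks of 5-HT replicate 2.

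Syn3 also had a DA-only and a 5-HT-only region near each other toward its 3′ end. The DA-only region chr10:85527556-85528050 scored 9.36, 10.2 and 9.79 in the DA libraries, and the 5-HT-only region chr10:85531936-85532369 scored 3.63 and 3.21 in the 5-HT libraries. The former was in the upper part of every DA library (lowest percentile 88.4) and the latter was low in both 5-HT libraries (19.0 and 25.8). Syn3 held 4 DA-only regions in all.

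Syn2 was among the members with the fewest regions for their length, with 6 in 148 kb, or 3.58 per 100 kb. Peaks were found in 3, 5, 4, 3 and 3 of them, and top peaks in 3, 4, 3, 3 and 3. Its promoter region, chr6:115084495-115085769, scored 6.62, 8.20, 5.87, 4.59 and 0. The promoter peak was absent from 5-HT replicate 2 alone, while 2 other regions of Syn2 had a peak in all 5 libraries. Syn1 had 6 regions, 1, 4, 4, 1 and 1 with a peak, and a promoter region with scores of 9.85, 8.93, 8.98, 5.91 and 3.82. This promoter was its 1 region with a top peak in every library.

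Synaptophysin, Syp, is an abundant vesicle membrane protein. Its 6 regions in 14.8 kb gave 17.2 per 100 kb, with a peak in 3, 6, 4, 2 and 2, and with a top peak in 2 in every library. Besides its promoter, a region inside the gene, chrX:7225459-7226579, had a peak in all 5 libraries, with scores of 11.6, 11.8, 10.3, 7.13 and 4.48. This distal region scored above the promoter of Syp (7.94, 8.504, 8.37, 4.89 and 2.92) in each library.

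SV2 proteins are vesicle glycoproteins, and Sv2a is the binding site of the antiepileptic drug levetiracetam. The promoter region of Sv2a, chr3:95984764-95985359, scored 4.83, 6.63 and 6.22 in the DA libraries and 0 in both 5-HT libraries. It was the 1 promoter region of the 33 genes in the DA-only class, which held 4.91% of all regions in protein-coding promoters. It was a top peak in DA replicate 3 alone, and both regions of the Sv2a window with a peak in all 5 libraries were promoters of other genes, Sf3b4 and Bola1.

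Sv2b and Sv2c had more regions with a peak in every DA library than in either 5-HT library. Sv2b had 14 regions, with a peak in 12, 12, 12, 4 and 0, and Sv2c had 18, with a peak in 11, 16, 13, 5 and 1. Top-peak counts were 3, 2, 3, 2 and 0 for Sv2b and 1, 1, 2, 2 and 1 for Sv2c, and the groups were not apart. Sv2b held 6 DA-only regions, and its promoter region, chr7:82452606-82454225, scored 4.09, 4.73, 4.72, 4.05 and 0. No region of Sv2b had a peak in 5-HT replicate 2.

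Rab3 GTPases mark vesicles for docking through RIM proteins. Rab3a, the main brain isoform, had the highest promoter peak of the 33 genes in both 5-HT libraries, with scores of 12.3, 17.9, 14.5, 13.3 and 12.7. All 5 were near the top of their libraries, at percentiles of 95.8, 98.6, 98.1, 99.6 and 99.8. Rab3c had 22 regions in 227 kb, with a peak in 7, 19, 15, 6 and 2, and Rab3b had 6, with a peak in 3, 6, 5, 2 and 1. In top peaks Rab3c had 3, 3, 4, 4 and 2 and Rab3b 3, 1, 1, 2 and 1, so neither kept the groups apart. A shared intronic region of Rab3c, chr13:110853018-110854083, scored 12.0, 16.01, 13.1, 8.22 and 4.40, above its promoter region in the first 4 of these libraries.

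The proteins of the active zone, of priming and of clamping are encoded by 9 members. They held 185 regions, 15 in their promoters, with 63, 113, 147, 39 and 26 peaks and 27, 23, 24, 22 and 26 top peaks. The groups were apart in the first series and overlapped in the second. Shared regions numbered 19, DA-only regions 30 (16.2%, against 13.4% of all deposited regions) and 5-HT-only regions 0.

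RIM scaffolds link Rab3 vesicles to calcium channels. Rims1 had 38 regions in 635 kb, with a peak in 9, 19, 31, 3 and 4, and 24 of the 38 had a peak in 1 DA library alone. It held 6 DA-only regions, and its top-peak counts of 3, 3, 3, 2 and 4 overlapped. An exonic region, chr1:22539907-22541090, had a peak in all 5 libraries with scores of 7.95, 13.6, 13.2, 7.86 and 4.51. Its promoter peak lay at an internal start, chr1:22811933-22814045, with scores of 6.58, 7.95, 9.52, 5.12 and 4.02.

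Rims2 had few regions for its length, 17 in 484 kb or 3.38 per 100 kb, with a peak in 6, 13, 16, 4 and 3. Its top-peak counts of 4, 4, 5, 3 and 3 were higher in every DA than in every 5-HT library (exact permutation p = 0.1, n = 3 and 2). Rims2 and Pclo were the members for which this held. The DA-only region of Rims2 at chr15:39165912-39166467 scored 10.2, 6.83 and 7.12 and was a top peak in each DA library.

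Bassoon and Piccolo, from Bsn and Pclo, are giant scaffolds of the active zone. Pclo had 15 regions in 349 kb, or 4.07 per 100 kb, with a peak in 7, 7, 11, 1 and 1, and with a top peak in 2, 2, 2, 1 and 1 (exact permutation p = 0.1, n = 3 and 2). Its promoter region, chr5:14514436-14516102, was the region of Pclo with a peak in the 5-HT libraries, at 12.6, 18.8, 17.7, 11.3 and 7.08. The promoter was thus high in both groups, and the other region counted in the DA libraries was an intronic DA-only one, chr5:14807260-14807434, with scores of 7.795, 8.92 and 9.18. Bsn had 6 regions, 3, 6, 3, 1 and 2 with a peak, and a promoter region with scores of 5.63, 8.07, 5.92, 5.29 and 4.11.

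Munc13-1, from Unc13a, primes vesicles for fusion. Its 11 regions in 45.0 kb gave 16.9 per 100 kb, with a peak in 4, 8, 7, 7 and 4 of them and a top peak in 4, 3, 3, 6 and 4 (exact permutation p = 0.3, n = 3 and 2). The groups overlapped in both series, and 5-HT replicate 1 had the highest count in the second. Of its 3 regions with a peak in all 5 libraries, 1 was its promoter, 1 an exonic region at chr8:74152802-74153960 with scores of 9.03, 11.0, 9.93, 7.37 and 3.43, and 1 a promoter of another gene.

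Complexins hold the assembled SNARE complex until calcium arrives. Cplx1 and Cplx2 were at opposite ends of the range of density. Cplx1 had 1 region in 31.5 kb, or 1.94 per 100 kb, which was its promoter, with a peak in all 5 libraries at 5.76, 7.15, 6.06, 5.30 and 4.01. Cplx2 had 6 regions in 12.6 kb, or 18.4 per 100 kb, with a peak in 2, 6, 3, 2 and 1. Its promoter region scored 7.39, 10.2, 6.85, 5.04 and 4.15, and its top-peak counts of 2, 2, 1, 1 and 1 were not apart between the groups.

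CAPS proteins, from Cadps and Cadps2, prime dense-core vesicles. Cadps had 35 regions in 451 kb, with a peak in 13, 23, 28, 7 and 4, and Cadps2 had 56 in 577 kb, with a peak in 18, 30, 47, 13 and 6. All DA counts were above all 5-HT counts, and each gene held 8 DA-only regions. The counts of top peaks were 4, 3, 4, 2 and 4 for Cadps and 6, 4, 5, 5 and 6 for Cadps2, and the groups overlapped. The DA-only region of Cadps at chr14:13416968-13417887 scored 8.75, 9.25 and 8.19 and was a top peak in each DA library.

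The 3 adhesion genes held 143 regions, 9 in their promoters. Peaks were found in 62, 101, 102, 37 and 20 of them and top peaks in 18, 19, 18, 14 and 20. The groups were apart in the first series and overlapped in the second, since 5-HT replicate 2 had the highest count. Shared regions numbered 12, DA-only regions 28 (19.6%) and 5-HT-only regions 1. The DA-only share was 13.4% over all deposited regions and 14.6% over regions outside every annotated promoter, and 132 of these 143 were distal. Nrxn3 held 19 of the 28, Nlgn1 7 and Nrxn2 2. By top peaks there were 5 DA-only and 3 5-HT-only regions, classes that held 2.14% and 1.79% of all deposited regions.

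Neurexins are presynaptic receptors whose genes use several promoters. Nrxn3 had the most regions of the 33 genes, 71 in 1612 kb at chr12:89961320-91573375 on the plus strand, but few for its length, 4.35 per 100 kb. Peaks were found in 34, 59, 46, 21 and 12 of them, and top peaks in 12, 12, 12, 7 and 12. The first series separated the groups and the second did not. Nrxn3 held 6 shared regions, 19 DA-only regions and 1 5-HT-only region, the last an intronic one at chr12:91003146-91003778 with scores of 3.50 and 3.32.

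The upstream promoter of Nrxn3, chr12:89961070-89961611, scored 12.0, 13.3, 14.1, 9.29 and 5.27. A promoter far inside the gene, chr12:91049916-91051488, had lower peaks in all 5 libraries, at 4.94, 5.63, 4.77, 3.92 and 2.97. Both had peaks in every library. Between them lay intronic DA-only regions. Of these, chr12:90561166-90562449 scored 12.6, 10.7 and 14.1 and chr12:90050314-90051059 scored 8.46, 8.43 and 12.3. A shared intronic region at chr12:90344555-90345212 scored 8.58, 7.66, 6.68, 11.0 and 4.81, and its score in 5-HT replicate 1 was the highest of that library among the shared distal regions named here.

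**Figure D3:**
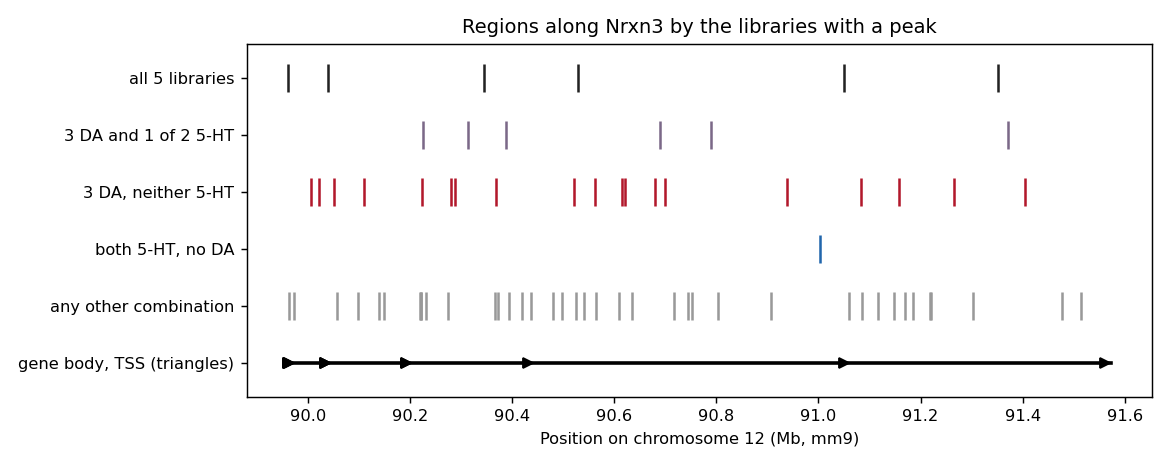
Positions of the 71 regions of Nrxn3 (ticks) along chromosome 12 (horizontal axis, Mb, mm9), in lanes by the libraries with a peak, above the gene body (black line) and its annotated starts (triangles). The 6 regions with a peak in all 5 libraries include the upstream and an internal promoter, and the 19 DA-only regions are spread over the introns.

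Nrxn2 had 18 regions in 125 kb, 6 of them at its promoters, with a peak in 10, 18, 11, 8 and 6. Its top-peak counts were 3, 5, 3, 5 and 6, and the groups overlapped. Its 5 shared regions include the upstream promoter, chr19:6418101-6419549, at 9.45, 14.6, 9.14, 6.50 and 4.93, and an internal one, chr19:6445837-6446649, at 6.34, 8.84, 8.62, 4.87 and 3.17. Both had peaks in every library, with the upstream one the higher.

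Nlgn1 encodes a postsynaptic neuroligin of excitatory synapses and was the member without any promoter region. The region nearest to its start, chr3:26033891-26034446, was centred 1512 bp upstream and scored 4.40, 3.99, 3.97, 3.97 and 0. Nlgn1 had 54 regions in 702 kb, with a peak in 18, 24, 45, 8 and 2, and with a top peak in 3, 2, 3, 2 and 2. All DA counts were above all 5-HT counts in the first series and the groups overlapped in the second. It held 7 DA-only regions and 1 shared region, the intronic chr3:25706315-25706822, with high scores of 11.6, 11.1, 14.9, 10.2 and 4.38.

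The members with 5 or more DA-only regions were Nrxn3, Cadps, Cadps2, Nlgn1, Sv2b and Rims1, with 54 of the 86. All have bodies over 100 kb. They held 71, 35, 56, 54, 14 and 38 regions of any class, next to a median of 10 over the 33 genes. Sv2b, with 14, had fewer regions than several members outside this group. Of the 33 genes, 13 held no DA-only region, and each of these had 11 regions or fewer. By top peaks the 15 DA-only regions were in Nrxn3, with 5, Syn3, with 2, and in Syt1, Syt2, Syt7, Syt9, Rims1, Rims2, Pclo and Cadps, with 1 each. The 9 regions that were 5-HT-only by top peaks were in Nrxn3, Syt1 and Syn3, with 2 each, and in Syt9, Syt11 and Nrxn2, with 1 each. With all peaks 1 of these 9 was 5-HT-only, the intronic region of Syt1, and the others had a peak below the top peaks in at least 1 DA library.

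Promoters were also compared by rank within each library. The rank of a gene is the place of its highest promoter peak among all peaks of the library, rank 1 being the highest score, and ranks beyond 22879 are treated as equal. Of the 32 members with a promoter region, 30 were within that limit in at least 1 library, and 23 of the 30 were within it in all 5 (76.7%, against 68.6% of 12452 genes). This comparison was chosen after the scores had been seen, and ranks do not allow for the different lengths of the peak lists, while percentiles are relative to that length.

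The promoter ranked higher in every DA library than in every 5-HT library at 3 of the 30, Vamp1, Syt7 and Syp, against 13.3% of genes. It ranked higher in every 5-HT library at 7 of the 30, Snap25, Rab3a, Rab3b, Rab3c, Cplx1, Unc13a and Bsn, against 17% of genes. The promoter of Vamp1 ranked 1752, 1364, 934, 2564 and 4513, and that of Syt7 ranked 5832, 5484, 6454, 14501 and 11414. The DA ranks of these genes were the nearer to the top, without overlap. Syp ranked 10058, 13867, 10362, 15467 and 21519.

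Among the 7 on the other side, Rab3a ranked 2226, 1293, 1772, 137 and 56, which placed it near the top of both 5-HT libraries. Cplx1 ranked 21134, 20109, 22206, 12480 and 8955. Unc13a ranked 18789, 15673, 12717, 11046 and 5436. Snap25 ranked 21276, 17162, 18997, 11092 and 13515, and Rab3c ranked 9314, 13104, 8675, 5767 and 1235. Bsn was beyond 22879 in DA replicate 3 and Rab3b in DA replicates 2 and 3. By percentile, counted after the ranks had been seen, 18 of the 32 promoters were higher in every DA than in every 5-HT library (56.3%, against 53.3% of 14559 genes) and 1 was higher in both 5-HT libraries (3.13%, against 0.529%), which was Rab3a. Rab3b was then higher in the DA libraries (58.4, 70.7, 71.3, 46.1 and 48.6), and the groups overlapped at the others of the 7, such as Cplx1 (60.0, 78.4, 76.5, 67.8 and 60.9) and Unc13a (64.5, 83.2, 86.5, 71.5 and 76.2). Vamp1, Syt7 and Syp were among the 18. So were Stx1a, Vamp2, Syn2 and Sv2a, where a 5-HT library without the promoter peak has no percentile and was counted as lower. The order of the groups thus depends on the measure at many promoters, while Rab3a, Vamp1, Syt7 and Syp kept theirs by both. How many of all genes keep their order by both was not counted. Pclo ranked 2013, 1022, 791, 390 and 1307, high in every library with overlap of the groups.

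**Figure D4:**
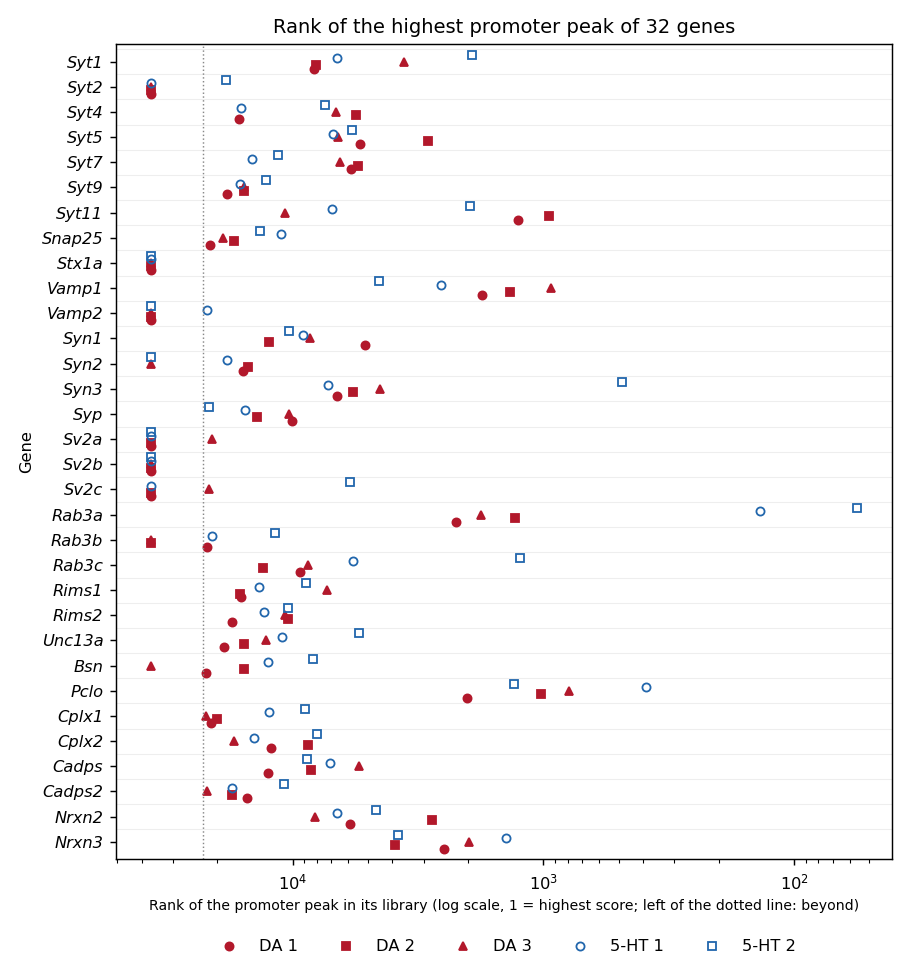
Rank of the highest promoter peak among the peaks of its library (horizontal log axis, 1 being the highest score) for the 32 members with a promoter region (vertical axis), with 1 point per library, DA in red and 5-HT in blue, and ranks beyond 22879 placed left of the dotted line. Rab3a ranks 137 and 56 in the 5-HT libraries and 2226, 1293 and 1772 in the DA libraries, and Vamp1 ranks higher in the 3 DA libraries.

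With the regions of all libraries pooled, the members had more for their length than the typical gene. Their median was 7.46 regions per 100 kb, against 6.00 for all protein-coding genes, and their median body was 87.6 kb, against 15.4 kb. By length of body the medians were 11.6 for the 9 members under 30 kb (6.35 for all genes of that length), 7.12 for 9 of 30 to 100 kb (5.50), 9.12 for 6 of 100 to 300 kb (6.13) and 5.80 for 9 of 300 kb or more (5.26). The pooled medians were higher for members in each class of length, and their own range ran from 1.94 at Cplx1 to 18.4 at Cplx2. Within single libraries the difference was not consistent. The median numbers of peaks per 100 kb were 3.37, 5.25, 5.93, 2.53 and 1.72 at members and 3.32, 4.79, 4.42, 2.59 and 1.67 at all protein-coding genes, and those of top peaks were 1.79, 1.51, 1.52, 1.52 and 1.72 against 1.65, 1.74, 1.57, 1.68 and 1.67. The 15 members of 100 kb or more held 457 of the 560 regions.

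Sequences were read from the mm9 genome to show what lies in the regions the results turn on. The letters searched, on both strands, were the E-box CAGCTG of proneural factors, the homeodomain core TAATTA, the cyclic AMP response element TGACGTCA, the NRF1 core CGCATGCG, and the RE1 element of the neuronal repressor REST, written as TTCAGCACC, any 2 bases, and GGACAG, with up to 2 mismatches in these 15 letters. No member window held overlapping matches. A match describes the letters and is not a binding site, and no match says only that these letters are not in this window.

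In the central 200 bp of the 487 distal regions, 102 held the E-box (20.9%, against 19.6% of the 114058 regions outside all promoters) and 34 held TAATTA (6.98%, against 7.11%). Among the 85 DA-only distal regions these were 19 (22.4%, against 24.0% of 16631 such regions) and 11 (12.9%, against 9.12%), and among the 20 shared distal regions 5 (25%, against 19.9% of 6332) and 1 (5%, against 5.50%). The 11 DA-only regions with TAATTA lay in Syn3, Sv2b, Sv2c, Rims2, Bsn, Cadps2 and Nrxn3. CRE and NRF1 letters were in 2 and 1 of the 487 distal regions (0.411% and 0.205%, against 0.224% and 0.122%), and RE1 letters in 0 (against 0.116%). In the 52 promoter regions the E-box was in 6 (11.5%, against 13.7% of 16220), TAATTA in 1 (1.92%, against 1.39%), the NRF1 core in 2 (3.85%, against 1.22%), and CRE and RE1 letters in 0 (against 1.24% and 0.179%). The median GC content was 62.5% in the promoter regions and 47.0% in the distal regions, next to 64.0% and 48.0% over all such regions.

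The windows at the 5′ end of each gene, 250 bp before and 50 bp after the first base, were searched too. The E-box was in 6 of 33 (18.2%, against 15.2% of 22367 genes), at Sv2a, Cplx1, Stx1a, Bsn, Nrxn3 and Rab3c. The CRE was in 2 (6.06%, against 2.32%), the NRF1 core in 2 (6.06%, against 2.23%), at Syn1 and Bsn, RE1 letters in 1 (3.03%, against 0.192%), at Syn1 with 1 mismatch, and TAATTA in 0 (against 4.83%). Syn1 is shown because its window holds 3 of the searched motifs, Bsn because it shares a motif with it, and Sv2a because its promoter region is the 1 in the DA-only class. The windows are in mm9, 5′ to 3′ on the strand of the gene, with every match in capitals: Syn1 at chrX:20498081-20498380 (minus), Bsn at chr9:108092666-108092965 (minus) and Sv2a at chr3:95984824-95985123 (plus).
Syn1: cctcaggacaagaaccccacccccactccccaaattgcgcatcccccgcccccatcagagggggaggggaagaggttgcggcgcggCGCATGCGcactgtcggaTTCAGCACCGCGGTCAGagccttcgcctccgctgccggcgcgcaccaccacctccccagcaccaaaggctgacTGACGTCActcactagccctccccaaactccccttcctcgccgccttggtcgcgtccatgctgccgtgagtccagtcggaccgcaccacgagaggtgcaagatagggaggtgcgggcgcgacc
Bsn: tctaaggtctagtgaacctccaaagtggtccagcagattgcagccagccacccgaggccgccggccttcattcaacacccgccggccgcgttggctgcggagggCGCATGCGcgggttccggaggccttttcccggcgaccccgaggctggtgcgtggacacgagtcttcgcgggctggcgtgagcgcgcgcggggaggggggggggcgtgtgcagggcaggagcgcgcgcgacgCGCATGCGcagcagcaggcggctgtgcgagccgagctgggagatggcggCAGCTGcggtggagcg
Sv2a: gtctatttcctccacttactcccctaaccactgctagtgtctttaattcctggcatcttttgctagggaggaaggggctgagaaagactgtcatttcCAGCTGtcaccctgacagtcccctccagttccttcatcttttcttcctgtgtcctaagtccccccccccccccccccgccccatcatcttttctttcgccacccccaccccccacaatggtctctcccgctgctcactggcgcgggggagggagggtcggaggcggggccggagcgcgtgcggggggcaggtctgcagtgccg

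The centres of 4 of the 5 DA-only distal regions with the highest percentile in their lowest DA library are shown, all of them also DA-only by top peaks. Each is 200 bp of mm9 on the plus strand, with matches in capitals: Syt9 at chr7:114669788-114669987, Nrxn3 at chr12:90050587-90050786, Syn3 at chr10:85527703-85527902 and Cadps at chr14:13417328-13417527. Those of Syn3 and Cadps hold an E-box, and those of Syt9 and Nrxn3 hold none of the searched letters. Their percentiles in the lowest of the DA libraries were 92.5 at Syt9, 84.1 at Nrxn3, 88.4 at Syn3 and 85.6 at Cadps.
Syt9: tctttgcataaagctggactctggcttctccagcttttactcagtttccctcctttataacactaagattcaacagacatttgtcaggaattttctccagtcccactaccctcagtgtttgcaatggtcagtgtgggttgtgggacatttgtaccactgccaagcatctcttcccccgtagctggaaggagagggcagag
Syn3: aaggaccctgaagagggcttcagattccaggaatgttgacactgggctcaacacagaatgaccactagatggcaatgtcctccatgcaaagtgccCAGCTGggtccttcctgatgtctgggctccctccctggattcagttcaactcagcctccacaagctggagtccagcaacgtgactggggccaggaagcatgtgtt
Cadps: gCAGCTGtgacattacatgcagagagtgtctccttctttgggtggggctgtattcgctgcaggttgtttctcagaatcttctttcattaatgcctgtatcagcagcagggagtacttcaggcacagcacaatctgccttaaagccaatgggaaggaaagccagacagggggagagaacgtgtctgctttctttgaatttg
Nrxn3: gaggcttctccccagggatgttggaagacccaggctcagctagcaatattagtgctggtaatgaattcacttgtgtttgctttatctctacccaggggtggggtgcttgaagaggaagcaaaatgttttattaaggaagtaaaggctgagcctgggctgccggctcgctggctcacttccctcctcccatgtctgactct

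For comparison, the centres of 3 distal regions with a peak in all 5 libraries and of the 5-HT-only region of Syt1 are given in the same way. They are Nrxn3 at chr12:90344784-90344983, Rab3c at chr13:110853451-110853650, Nlgn1 at chr3:25706469-25706668 and Syt1 at chr10:107969798-107969997, all on the plus strand of mm9. Capitals mark an E-box in the shared Nrxn3 region, and the others hold none of the searched letters.
Nrxn3, shared: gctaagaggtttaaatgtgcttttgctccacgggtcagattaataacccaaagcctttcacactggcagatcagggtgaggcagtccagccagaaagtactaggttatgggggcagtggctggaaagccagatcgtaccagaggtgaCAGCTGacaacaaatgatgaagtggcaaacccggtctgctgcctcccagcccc
Rab3c, shared: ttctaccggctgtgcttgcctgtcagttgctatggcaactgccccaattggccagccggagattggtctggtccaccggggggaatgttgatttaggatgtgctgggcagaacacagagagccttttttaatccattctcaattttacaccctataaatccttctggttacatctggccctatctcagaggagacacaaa
Nlgn1, shared: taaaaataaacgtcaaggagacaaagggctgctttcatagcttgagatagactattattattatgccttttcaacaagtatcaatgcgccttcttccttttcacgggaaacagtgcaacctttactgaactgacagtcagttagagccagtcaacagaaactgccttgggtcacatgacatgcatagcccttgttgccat
Syt1, 5-HT-only: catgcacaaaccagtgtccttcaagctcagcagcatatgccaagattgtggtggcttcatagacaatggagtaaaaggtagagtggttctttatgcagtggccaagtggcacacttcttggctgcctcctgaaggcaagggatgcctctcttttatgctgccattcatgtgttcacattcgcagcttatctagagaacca

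Other genes of release and synaptic adhesion were listed for comparison, 54 in all, with 557 regions. Of these regions 72 had a peak in all 5 libraries (12.9%), 78 were DA-only (14%) and 0 were 5-HT-only. Over all deposited regions these shares were 12.8%, 13.4% and 0.389%. By top peaks the counts were 40, 9 and 7 (7.18%, 1.62% and 1.26%), against 8.34%, 2.14% and 1.79% of all deposited regions. A promoter with a peak in all 5 libraries was present at 35 of the 54 genes, against 48.3% of all protein-coding genes. The median density was 7.67 regions per 100 kb. More regions with a top peak in every DA than in every 5-HT library were found at 4 genes, Snap23, Syt17, Unc13b and Ptprd. The reverse held at 5, Syt10, Lrrtm1, Cbln2, Slitrk1 and Flrt2. Among all protein-coding genes with a region these conditions held for 5.45% and 5.54%. The receptor phosphatase gene Ptprd held 80 regions, 11 of them DA-only, with a peak in 22, 60, 57, 15 and 4. All of its DA counts were above both 5-HT counts with all peaks. The adhesion gene Cadm2 held 5 DA-only regions of 30, the Munc13 gene Unc13c 3 of 13 and the phosphatase gene Ptprf 2 of 16. Unc13c had no promoter region, and the promoter of Ptprf had a peak in 4 libraries.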

How the data were processed

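The deposited files hold, for each of the 5 ATAC-seq libraries, the same 131942 regions with a score, the unit the authors deposited, whose scale is not named and which is 0 where the library has no peak. According to the study's methods, the authors used Trimmomatic and FastQC on paired-end reads, Bowtie2 for mapping to mm9, Picard against duplicates, MACS2 for calling peaks in each library, BEDOPS to join those closer than 100 bp, and HOMER for annotation. Versions of these tools were not given in the sources used here, and the read depth per library is unknown. In 1 line a misspelled chromosome name was corrected.

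Regions were assigned to genes of the GENCODE vM1 annotation with Python 3.11.15, NumPy 2.4.6, pandas 2.3.3 and SciPy 1.17.1, and figures were drawn with matplotlib 3.10.9. A score above 0 counted as a peak. Density is the number of regions per 100 kb of the gene body with 10 kb on each side. The top peaks are the 22879 with the highest scores in each library, with ties in the order of the table. Shares of 1 library carry 95% Wilson intervals, and counts of single genes an exact two-sided permutation test over the 3 and 2 libraries, whose smallest p of 0.1 leaves nothing for a correction over genes to change. Regions and genes were not treated as replicates. Sequence was read from the NCBIM37 (mm9) assembly and searched for exact letters on both strands, with mismatches allowed for RE1 only. The code was tested on simulated data.

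The members and the lists of other genes were chosen with earlier results of these data known. Values in every library were given by rule for members without a promoter peak in at least 1 library. They were also given for the 5 with the most and the 5 with the fewest regions per 100 kb. The same held for members with 5 or more DA-only regions or with a 5-HT-only region. It also held for the 5 DA-only and the 5 shared distal regions with the highest percentile in their lowest library. From the comparison list, up to 5 genes meeting the same conditions were named. Other members and regions were given values after these had been seen, and the comparisons of promoter ranks and percentiles and the count of markers by top peaks were also chosen after seeing the data.

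The alternatives were windows without an extension and with one of 50 kb, other limits of the promoter or the 5′ start alone, an overlap counted by the centre of the region, regions less than 100 bp apart merged, peaks above the median score of their library, all peaks, the same number of peaks or 10000 peaks per library, each library left out in turn, and libraries paired by replicate number. Leaving out promoters of other genes and using distal regions alone were chosen after seeing the data. RNA-seq libraries of the series were not used.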

Additional observations from a re-analysis of the deposited data

How the results depend on the processing

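Of 77 recalculated values of 7 results, 57 stayed within 1.5 times the reported count or within the spread between replicates, and 20 did not. The number of members with a promoter peak in all 5 libraries stayed within that limit under each of its 10 alternatives, at 21 to 31. Taking regions by their centre, merging neighbours and leaving out the extension of the gene body kept every result they were run on within it.

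A 50 kb extension raised the regions with a peak in all 5 libraries to 117, since longer windows hold more regions, and gave a difference in shares of -0.281 points, within the spread of 0.825. When every library kept the same number of peaks, the DA-only regions were 15, the 5-HT-only regions 9 and the median density 2.98 per 100 kb. With peaks above the median score alone, the shared regions were 32, the DA-only regions 46 and the density 4.08. Fewer peaks enter both settings by construction. Members with more regions with a peak in every DA library numbered 19 with all peaks and 0 with 10000 peaks per library, against 2 as reported, and the difference in shares was 39.3 points with all peaks. Over distal regions alone, a setting chosen after seeing the data, the difference was 1.98 points; the cause was not tested.

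In the replicate block, which paired numbers 1 and 2 and left out DA replicate 3, 4 members had more in DA and the mean paired difference was 0.536 ± 2.02 points (SD, n = 2). The libraries share a number, and nothing states that they were handled together.

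Leaving out each library in turn gave 62 to 102 regions with a peak in all remaining libraries, 92 to 166 DA-only regions, 3 to 25 5-HT-only regions, 2 to 10 members with more in every DA library, a difference of -0.179 to 0.893 points and 27 to 31 members with a shared promoter. The extremes came from 5-HT replicate 2, without which the values were 102 shared regions, 25 5-HT-only regions and 10 members, and from DA replicate 1, without which there were 166 DA-only regions. Without 5-HT replicate 1 there were 14 5-HT-only regions and 5 members, and without DA replicate 2 there were 5 and 4. The lowest difference, -0.179 points, came without 5-HT replicate 1. A class defined by fewer libraries is met more easily by construction, and without 5-HT replicate 2 the same number of peaks is that of the next smallest library.

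With 3 and 2 libraries the permutation test used here gives no p under 0.1, read depth is unknown, and a region without a peak is a region not detected in that library.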
